A study of Homo sapiens with 6 samples.

Results

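The HNRNPA family of RNA-binding protein genes was followed in the human colorectal carcinoma line HCT116 upon overexpression of SNORA28, an H/ACA small nucleolar RNA. The family comprised 6 of the 60612 genes listed, namely HNRNPA1, HNRNPA2B1, HNRNPA3, HNRNPA0, HNRNPAB and HNRNPA1L2. HNRNPA1L2 was chosen because its values were much higher with SNORA28 in the comparison described here, so its own difference is given as a description with no test. The other 5 genes were chosen by family name. Of 6 RNA-seq libraries, 3 represented infection with LV-NC, the negative control virus, and 3 infection with LV-SNORA28, which carries the snoRNA, so lentiviral infection was common to both groups. The virus was made with the GV235 vector, and the sources used here do not give the promoter, the number of clones or whether the libraries of a group came from separate cultures. The p-values below therefore measure the spread between libraries, which may be technical. Values are FPKM, that is, fragments per kilobase of transcript scaled to the mapped total of the library, so levels of different genes can be compared per length.

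Heterogeneous nuclear ribonucleoproteins (hnRNPs) bind newly made RNA in the nucleus and take part in splicing, export, stability and translation. The A and B types carry a pair of RNA recognition motifs followed by a glycine-rich tail, shuttle between nucleus and cytoplasm, and are abundant in most dividing cells. HNRNPA1 and HNRNPA2B1 repress exons and act on the mutually exclusive exons of the pyruvate kinase gene PKM. HNRNPA1 has left many processed copies in the genome, which arise when an mRNA is reverse transcribed and inserted elsewhere. HNRNPA1L2 is one of these intronless copies, annotated as protein-coding.

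In GENCODE release 44 on GRCh38, HNRNPA1L2 (ENSG00000139675) is a single exon on chromosome 13, 52642431 to 52643773, plus strand. HNRNPA1 (ENSG00000135486) lies on chromosome 12, 54280193 to 54287088, plus strand. The coding sequence of HNRNPA1L2 and that of the matching HNRNPA1 isoform both had 963 bases including the stop codon, and they differed at 15 of them with no gap. Over 1340 aligned bases of the whole transcript the identity was 98.5%, and the longest identical run had 286 bases.

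**Figure D1:**
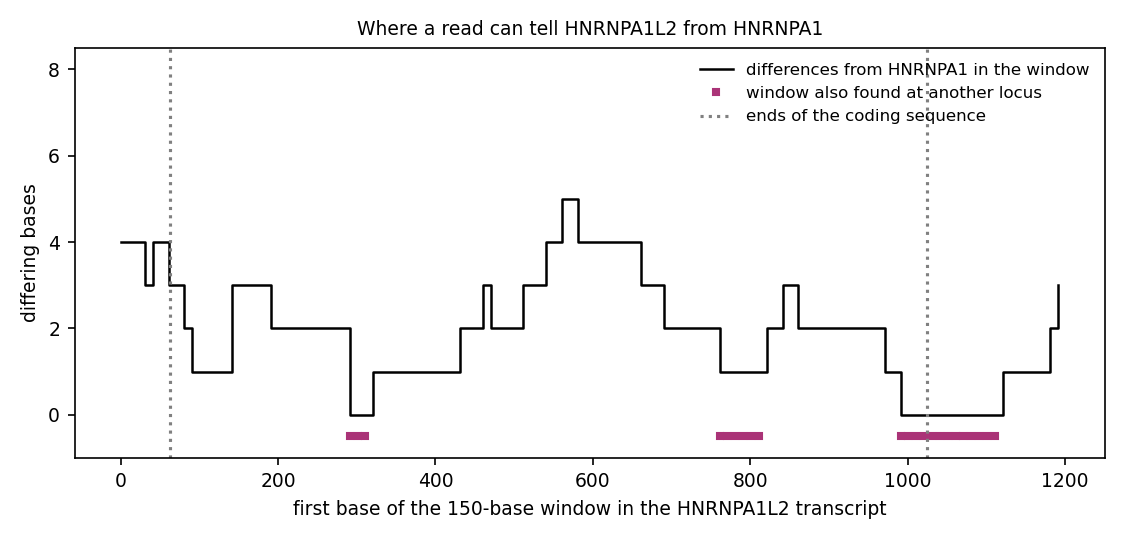
The x axis gives the first base of each 150-base window along the HNRNPA1L2 transcript (every 10th window is drawn), and the y axis counts the bases in the window that differ from HNRNPA1. Squares mark windows found exactly at another locus, and dotted lines mark the ends of the coding sequence. The count reached 5 in the middle of the coding sequence. It was 0 in the drawn windows starting at bases 291 to 311, inside the coding sequence, and at bases 991 to 1111, around its end.

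Of the 1194 windows of 150 bases in the HNRNPA1L2 transcript, 217 were also found exactly in a transcript of another locus, and 162 of these in HNRNPA1. The remaining 81.8% were particular to HNRNPA1L2 when the lncRNA that overlaps it was set aside. Of its 1044 windows of 300 bases, the mean insert of the libraries per the labels, 0 were shared. HNRNPA2B1, HNRNPA0 and HNRNPAB had no shared window at 150 bases. In HNRNPA3, 92.3% of windows were its own, and in HNRNPA1 76.5%. Among the copies the share was 78.8% for HNRNPA1L3, 61.1% for HNRNPA1P10 and 38.2% for HNRNPA1P7. How reads that match several loci were assigned is not given in the sources used here, so values of HNRNPA1 and its copies are uncertain. The shares count exact matches and take no account of the level of each gene, so they do not bound the error, which was not measured.

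The libraries matched their labels in that SNORA28 was listed at 0 to 0.92 FPKM in LV-NC and at 13.7 to 15.2 FPKM in LV-SNORA28. The libraries were poly(A)-selected, and whether these reads came from the mature snoRNA or from a longer transcript was not tested. Genes of the mitochondrial genome took a larger part of the summed FPKM under LV-NC, 42.7% to 47.7%, than under LV-SNORA28, 35.9% to 38.3%. Of 8 colorectal epithelial markers 6 were expressed, EPCAM, KRT8, KRT18, KRT19, CDH1 and CDX2, while VIL1 and LGALS4 stayed at or below 0.1 FPKM. None of the 6 passed the test in limma, beside 8.91% of all genes tested. The unadjusted p was under 0.05 for 0 of them, a count given only as a description. The lowest adjusted p-values were 0.25 for KRT18, 0.28 for CDX2 and 0.29 for EPCAM. All 7 markers of immune, stromal, endothelial, liver and heart cells were at or below 0.22 FPKM, and COL1A2 was at 0 in all 6 libraries.

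HNRNPA1L2, chosen for its rise, was the family member with the largest log2 difference between the groups. It stood at 1.8, 2.19 and 1.8 FPKM under LV-NC, against 14.6, 12 and 11.5 FPKM under LV-SNORA28. The lowest LV-SNORA28 library lay far above the highest LV-NC library. The mean went from 1.93 ± 0.225 FPKM (SD, n = 3) to 12.7 ± 1.67 FPKM (SD, n = 3), a 6.59-fold difference. On the log2(FPKM + 1) scale, which understates changes of low genes, the difference was 2.22 (SE 0.11), the 3rd highest of the 12076 genes tested, those averaging 1 FPKM or more. When each library was left out in turn, it ran from 2.13 to 2.29. Bulk RNA cannot separate a change in all cells from a change in a share of them.

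**Figure D2:**
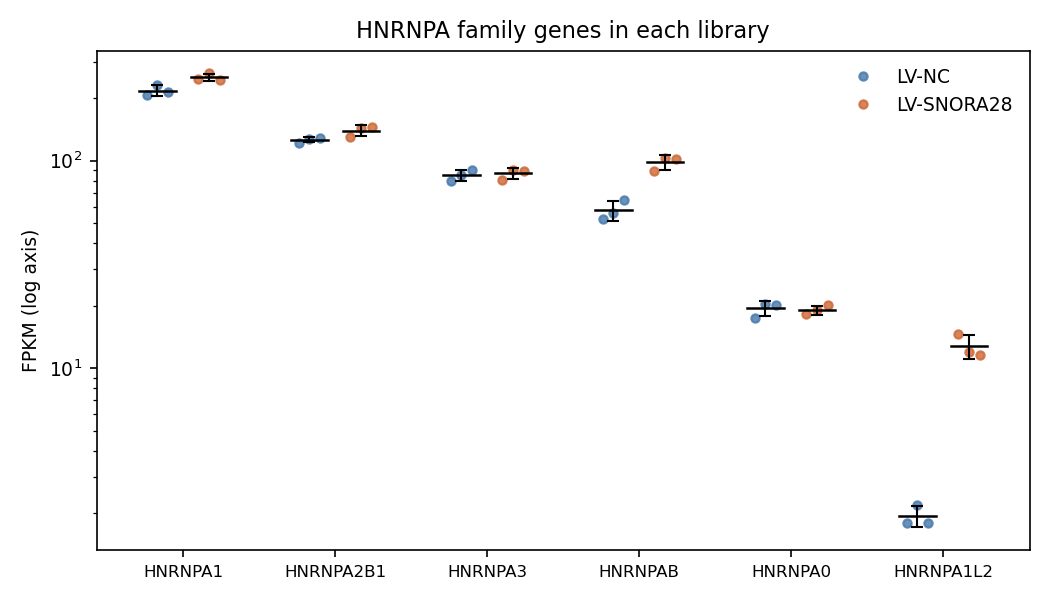
The y axis gives FPKM on a log axis for the 6 family genes, ordered by mean level. Points are libraries, horizontal bars are group means and error bars are 1 SD (n = 3 per group). The mean of HNRNPA1L2 went from 1.93 to 12.7 FPKM and that of HNRNPAB from 57.7 to 98.1 FPKM, and HNRNPA3 and HNRNPA0 had overlapping groups.

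Relative to its parent within each library, which is free of the scaling between libraries, HNRNPA1L2 stood at 0.871%, 0.945% and 0.839% of HNRNPA1 in LV-NC. In LV-SNORA28 it stood at 5.93%, 4.55% and 4.69%. The mean was 0.885% ± 0.0543 (SD, n = 3) against 5.06% ± 0.756 (SD, n = 3). Even in LV-SNORA28, HNRNPA1L2 therefore remained far below its parent gene.

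None of the genes around HNRNPA1L2 passed the test. The lncRNA ENSG00000273784 runs on the same strand from 52600042 to 52643773, and an annotated exon of it contains all of HNRNPA1L2, so reads of the copy cannot be assigned to one of them by position. This lncRNA stood at 2.36, 2.15 and 3.86 FPKM under LV-NC, against 2.37, 2.4 and 1.75 FPKM under LV-SNORA28, with overlapping groups and an adjusted p of 0.45. The sum of both went from 4.72 ± 0.819 to 14.9 ± 1.91 FPKM (SD, n = 3). The nearest protein-coding gene to the right is SUGT1, a co-chaperone of HSP90 that starts 8936 bases away, and it stood at 3.03, 3.42 and 3.39 FPKM under LV-NC, against 3.91, 4.38 and 4.12 FPKM under LV-SNORA28. Its groups did not overlap, but its log2 difference was 0.26 (SE 0.08) and did not pass (adjusted p = 0.082). CKAP2, a spindle protein gene 165803 bases to the left, had a log2 difference of 0.27 (SE 0.24), with overlapping groups and an adjusted p of 0.50.

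None of the other HNRNPA1 copies was called higher. Of 75 annotated copies, 74 pseudogenes and HNRNPA1L3, 39 were listed at 0 in all libraries, 68 stayed under 1 FPKM throughout, and the 7 that reached 1 FPKM were tested. None of the 7 passed the test in limma, which among so few genes is near the 8.91% of all genes tested that passed. HNRNPA1P4 and HNRNPA1P35 had an unadjusted p of 0.0053 and 0.039 and HNRNPA1L3 of 0.024. All 3 of these were lower in LV-SNORA28. The share of all genes tested with so low an unadjusted p was not computed, so these p-values are only a description. HNRNPA1L3 stood at 20.1, 21.7 and 21.8 FPKM under LV-NC, against 17.8, 18.9 and 19 FPKM under LV-SNORA28. Its groups did not overlap and its log2 difference was -0.18 (SE 0.06, adjusted p = 0.12), and under quantile normalization the difference was called (adjusted p = 0.042). HNRNPA1P4 had the lowest adjusted p of the copies, 0.054 (0.048 with no trend, where it was called), with 1.92 ± 0.198 FPKM in LV-NC and 1.17 ± 0.202 FPKM in LV-SNORA28 (SD, n = 3).

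The other 5 copies that reached 1 FPKM had overlapping groups. Over all genes tested, 35.1% had groups that did not overlap. HNRNPA1P10, the most abundant, was at 27.3 ± 3.08 and 27.9 ± 2.7 FPKM in LV-NC and LV-SNORA28 (SD, n = 3). HNRNPA1P7 was at 18 ± 3.07 and 21.7 ± 2.53 FPKM (SD, n = 3), with an adjusted p of 0.26. HNRNPA1P35 had means of 2.35 and 1.57 FPKM, HNRNPA1P16 of 1.45 and 1.22 FPKM, and HNRNPA1P49 of 1.36 and 1.23 FPKM. The summed level of the 74 pseudogenes was 55.1 ± 4.01 FPKM in LV-NC and 56.6 ± 0.851 FPKM in LV-SNORA28 (SD, n = 3). As a percent of HNRNPA1 in the same library, this sum was 24.6%, 25.3% and 26.1% in LV-NC and 22.9%, 21.8% and 22.7% in LV-SNORA28. Between the groups there was no overlap in this percent, and a two-sided exact permutation test gave p = 0.1, the smallest that 3 against 3 libraries allow. The sum itself had overlapping groups, while HNRNPA1, the denominator, had means of 217.7 FPKM in LV-NC and 252.1 FPKM in LV-SNORA28.

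**Figure D3:**
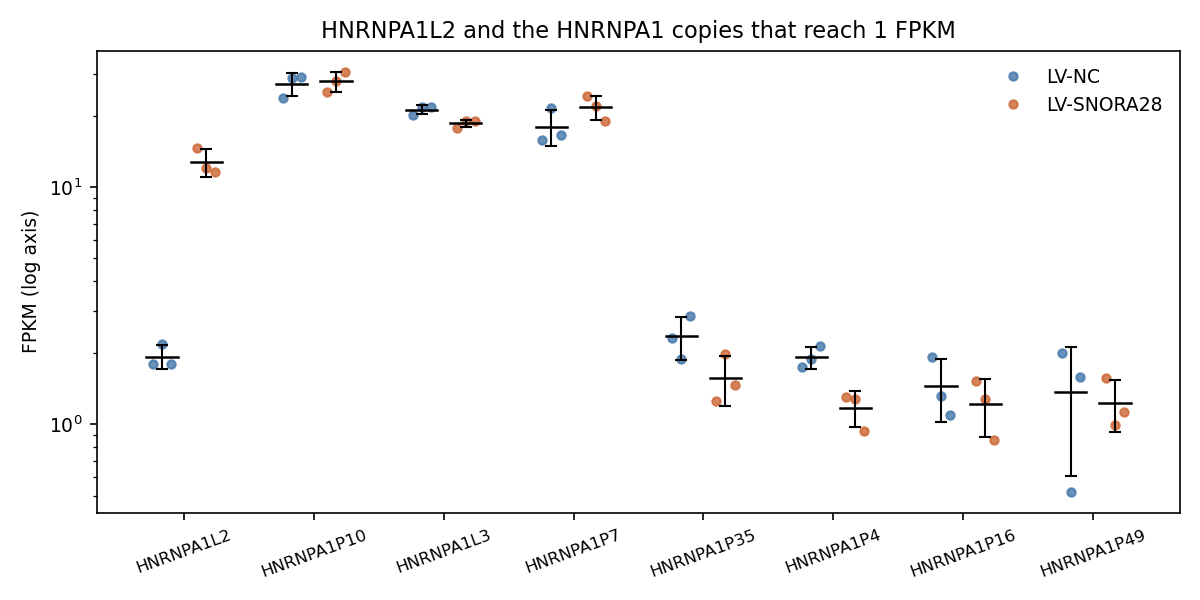
The y axis gives FPKM on a log axis for HNRNPA1L2 and the 7 other HNRNPA1 copies that reached 1 FPKM in any library. Points are libraries, horizontal bars are group means and error bars are 1 SD (n = 3 per group). The groups of HNRNPA1L2 are far apart, while HNRNPA1L3 and HNRNPA1P4 were lower in LV-SNORA28 with no overlap and the other 5 overlapped.

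HNRNPA1, the parent gene and the best studied splicing repressor of the family, was the most abundant member. It stood at 206.7, 231.8 and 214.6 FPKM under LV-NC, against 246.9, 263.5 and 245.9 FPKM under LV-SNORA28. All 3 LV-SNORA28 libraries lay above all LV-NC libraries, with a ratio of means of 1.16. The log2 difference of 0.21 (SE 0.07, 95% interval 0.05 to 0.37) did not pass in limma (adjusted p = 0.097). Under quantile normalization, which brings the median log2 difference of all genes from 0.09 to 0.00, HNRNPA1 passed with a log2 difference of 0.25 (adjusted p = 0.046). With an equal FPKM sum outside the mitochondrial genome the difference was 0.18 and did not pass (adjusted p = 0.11). It did not pass in 12 of the 13 alternatives. HNRNPA1 with all its copies, HNRNPA1L2 included, summed to 296 ± 17.5 FPKM in LV-NC and 340 ± 10.5 FPKM in LV-SNORA28 (SD, n = 3). Without HNRNPA1L2 the sums were 294.1 ± 17.3 and 327.3 ± 10.9 FPKM. In the sums without HNRNPA1L2 the groups did not overlap, and a two-sided exact permutation test gave p = 0.1, the smallest possible here. The sum with HNRNPA1L2 holds the gene chosen from this contrast, so it is given with no test.

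HNRNPA2B1 encodes the A2 and B1 isoforms, which bind exon and transport elements and take part in sorting RNA. It stood at 122.2, 126.9 and 128.9 FPKM under LV-NC, against 129.9, 144.3 and 144.6 FPKM under LV-SNORA28. The groups were separate by a narrow margin. The log2 difference was 0.15 (SE 0.06, 95% interval -0.01 to 0.30), and the adjusted p was 0.20. NFE2L3 and CBX3 overlap HNRNPA2B1 on the opposite strand, and the strand setting of the counting is not given in the sources used here. NFE2L3, a transcription factor gene, was at 12.5 ± 0.268 and 10.3 ± 0.977 FPKM (SD, n = 3), opposite in direction to HNRNPA2B1 (adjusted p = 0.088), and it passed under quantile normalization (adjusted p = 0.041). CBX3, a heterochromatin protein gene, was at 43.1 ± 3.42 and 48.6 ± 2.96 FPKM (SD, n = 3), with an adjusted p of 0.22.

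HNRNPA3 and HNRNPA0 showed no difference beyond the spread between libraries. HNRNPA3, which binds RNA transport elements and telomeric repeats, stood at 79.7, 85.4 and 89.9 FPKM under LV-NC, against 81.1, 90.2 and 89.4 FPKM under LV-SNORA28. Its log2 difference was 0.03 (SE 0.07, 95% interval -0.14 to 0.20), with an adjusted p of 0.82. HNRNPA0, an intronless gene whose protein binds AU-rich elements, stood at 17.5, 20.4 and 20.3 FPKM under LV-NC, against 18.2, 19 and 20.1 FPKM under LV-SNORA28. Its log2 difference was -0.02 (SE 0.08, 95% interval -0.21 to 0.17), with an adjusted p of 0.89. These intervals bound the changes but do not show that either gene was unchanged. The sign of both differences turned under some alternatives given in the closing section.

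Of 16 annotated HNRNPA3 copies, 3 were tested. HNRNPA3P5 stood at 5.3, 4.03 and 4.59 FPKM under LV-NC, against 2.36, 3.01 and 3.2 FPKM under LV-SNORA28. It fell by 0.55 on the log2 scale (SE 0.12) with an adjusted p of 0.043, but it lost the call when any 1 of the 6 libraries was left out (adjusted p 0.059 to 0.11) or with no filter (adjusted p = 0.11). HNRNPA3P10 did not pass (adjusted p = 0.21). HNRNPA3P6, which shares 420 windows of 150 bases with HNRNPA3, varied widely within both groups and was at 1.1 FPKM in the LV-SNORA28 library 2 and at 4.77 to 9.83 FPKM in the others.

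HNRNPAB was the 1 gene among the 5 not used by the rule that passed the test, where 8.91% of all genes tested passed in either direction and 6.81% were called higher. The 1076 genes called were 822 higher and 254 lower, and under quantile normalization they were 451 higher and 375 lower. HNRNPAB encodes CBF-A, an hnRNP of the A and B type that binds RNA transport elements and also single-stranded DNA. It stood at 52.1, 56.1 and 64.8 FPKM under LV-NC, against 89.1, 103.5 and 101.7 FPKM under LV-SNORA28. The lowest LV-SNORA28 library was well above the highest LV-NC library, and the ratio of means was 1.7. The log2 difference was 0.76 (SE 0.10, 95% interval 0.52 to 1.00) with an adjusted p of 0.011 in limma. HNRNPAB passed under all 13 alternatives, with differences between 0.67 and 0.84 and adjusted p-values between 0.0074 and 0.048. With all libraries set to an equal FPKM sum outside the mitochondrial genome, the difference was 0.73. HNRNPAB (ENSG00000197451; chromosome 5, 178204533 to 178211163, plus strand) is overlapped on the minus strand by PHYKPL, an enzyme gene of hydroxylysine breakdown, which was at 1.65 ± 0.432 and 1.94 ± 0.14 FPKM (SD, n = 3) with overlapping groups. Its nearest neighbours GMCL2 and COL23A1 had means of at most 0.023 FPKM in both groups.

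Of 19 genes that overlap a member or lie nearest to it, 11 were tested. None was called in limma, beside 8.91% of all genes tested. The 4 with an unadjusted p under 0.05 were SUGT1, NFE2L3, SNX10 and AGPS. The share of all genes tested with such a p was not computed, so this count is only a description. SNX10, a sorting nexin gene to the right of HNRNPA2B1, had a log2 difference of 0.38 (SE 0.10, adjusted p = 0.057), and it was called when genes averaging under 5 FPKM were left out (adjusted p = 0.045) or without LV-SNORA28 library 1 (adjusted p = 0.048). AGPS, an ether lipid enzyme gene to the right of HNRNPA3, had a log2 difference of 0.27 (SE 0.09, adjusted p = 0.11). NFE2L2, the NRF2 gene that overlaps HNRNPA3 on the opposite strand, was at 6.49 FPKM in LV-NC library 1 and at 21.1 to 24.8 FPKM in the others. CBX5, which starts 60 bases from HNRNPA1 on the opposite strand, and MTX2, to the left of HNRNPA3, had overlapping groups. NFE2 and the lncRNA ENSG00000258344 beside HNRNPA1, KLHL3 and MYOT beside HNRNPA0, and NPVF and MIR4444-1 were below the filter, the last 2 at 0 in all libraries.

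Among the 5 family genes other than HNRNPA1L2, 3 had groups that did not overlap, HNRNPA1, HNRNPA2B1 and HNRNPAB, and all 3 were higher in LV-SNORA28. Over all genes tested, 35.1% had groups that did not overlap. The median log2 difference of the 5 genes was 0.15, beside 0.09 over all genes tested.

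The order of the levels per length was HNRNPA1, HNRNPA2B1, HNRNPA3, HNRNPAB, HNRNPA0 and HNRNPA1L2. By mean FPKM, HNRNPA1 ranked 115th, HNRNPA2B1 218th and HNRNPA1L2 4671st among the 12076 genes tested. All neighbours in this order were separate in all 6 libraries except HNRNPA3 and HNRNPAB. In LV-NC the highest HNRNPAB value, 64.8 FPKM, was below the lowest HNRNPA3 value, 79.7 FPKM. In LV-SNORA28 HNRNPAB ran from 89.1 to 103.5 FPKM and HNRNPA3 from 81.1 to 90.2 FPKM, so the 2 genes overlapped. HNRNPAB made up 11.3% ± 0.968 of the summed FPKM of the 6 genes in LV-NC and 16.1% ± 0.652 in LV-SNORA28 (SD, n = 3). The summed FPKM of the 6 genes was 507.8 ± 23.9 in LV-NC and 608.5 ± 26.7 in LV-SNORA28.

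Of 22 other hnRNP genes, 3 were called higher (13.6%, against 6.81% of all genes tested), 0 lower and 19 did not pass. Their median log2 difference was 0.12, beside 0.09 over all genes tested. HNRNPUL2, a relative of the scaffold protein HNRNPU, stood at 21.2, 19.8 and 21.3 FPKM under LV-NC, against 35.8, 35.7 and 37.8 FPKM under LV-SNORA28. It rose by 0.78 on the log2 scale (SE 0.06, adjusted p = 0.0027), close in size to HNRNPAB. HNRNPLL, a regulator of CD45 splicing in lymphocytes, rose by 0.47 (SE 0.07, adjusted p = 0.017). HNRNPK, a KH-domain protein that binds C-rich RNA and DNA, rose by 0.24 (SE 0.05, adjusted p = 0.038).

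With single libraries left out, HNRNPUL2 kept its call in all 6 fits. HNRNPK lost it in all 6 (adjusted p 0.071 to 0.12), and also with no trend, quantile normalization, an equal FPKM sum outside the mitochondrial genome or no filter (adjusted p 0.058 to 0.081). HNRNPLL lost it in 4, without LV-NC library 3 or any of the LV-SNORA28 libraries (adjusted p 0.054 to 0.060). HNRNPH2 had the largest difference of the 22 genes, 1.21, with an SE of 0.84, because LV-NC library 1 was at 4.11 FPKM while the other 5 libraries were at 45.5 to 54.4 FPKM, and it did not pass (adjusted p = 0.39). It was named after its values were seen.

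**Figure D4:**
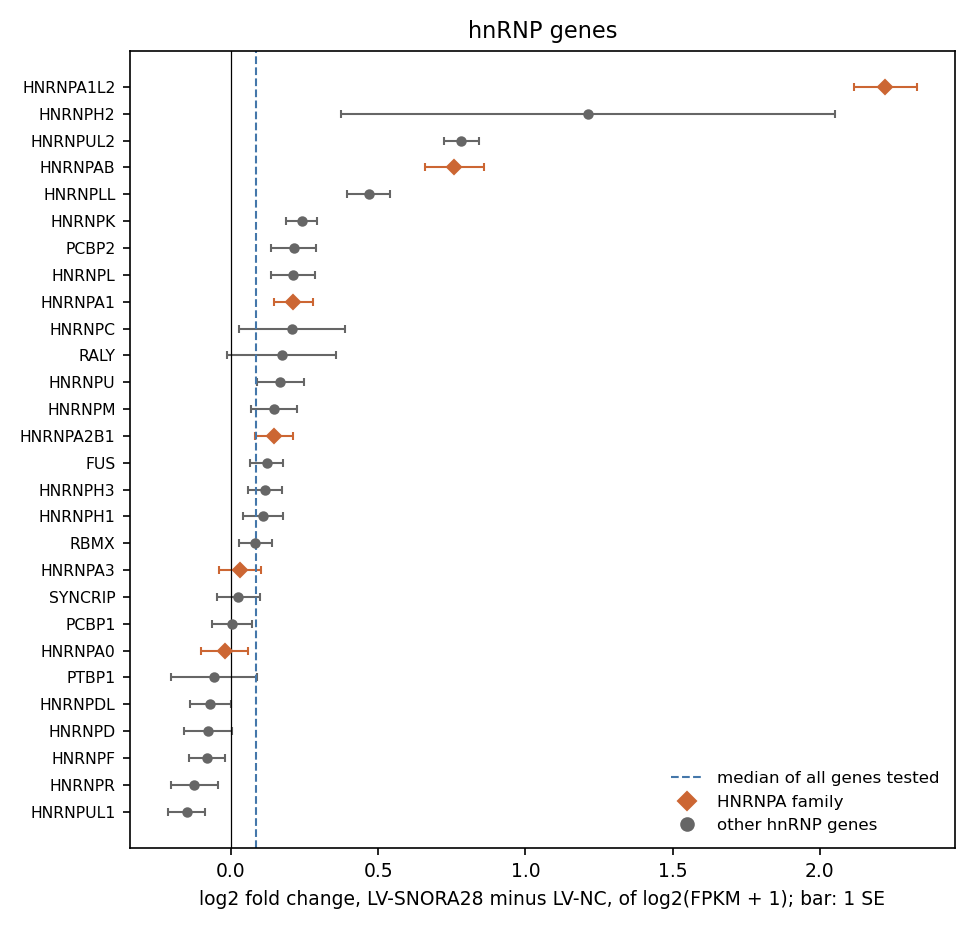
The x axis gives the log2 difference of log2(FPKM + 1), LV-SNORA28 minus LV-NC, for the 6 family genes (diamonds) and 22 other hnRNP genes (circles), with bars of 1 SE and a dashed line at the median of all genes tested. HNRNPA1L2 lies at 2.22 and HNRNPH2 at 1.21 with a wide bar (SE 0.84). HNRNPUL2 and HNRNPAB lie at 0.78 and 0.76, and most others lie near the dashed line at 0.09.

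None of the 6 relatives with a similar pair of RNA recognition motifs passed the test in limma. Among so few genes this is near the 8.91% of all genes tested that passed. HNRNPD and HNRNPDL are also counted in the 22 other hnRNP genes. Of the 6, 1 had an unadjusted p under 0.05, a count given only as a description. That gene was DAZAP1, a splicing and translation regulator, with a log2 difference of 0.21 (SE 0.06, adjusted p = 0.069). MSI2, a Musashi translational regulator, was at 5.86 FPKM in LV-NC library 3 and at 1.69 to 2.31 FPKM in the other 5 libraries (adjusted p = 0.46). HNRNPDL had a log2 difference of -0.07 (SE 0.07, adjusted p = 0.57).

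Among 14 known partners and targets of HNRNPA1 and HNRNPA2B1, 1 was called higher, 1 lower and 12 did not pass, so that 14.3% were called against 8.91% of all genes tested. MAPK14, the p38 kinase that acts on HNRNPA1 localization under stress, stood at 5.9, 5.26 and 6.05 FPKM under LV-NC, against 2.58, 2.39 and 2.54 FPKM under LV-SNORA28. It fell by 0.94 on the log2 scale (SE 0.08, adjusted p = 0.0031) and passed without any single library (adjusted p 0.011 to 0.019). KHDRBS1, which encodes the splicing regulator SAM68, rose by 0.28 (SE 0.06, adjusted p = 0.043) but lost the call when any 1 library was left out (adjusted p 0.075 to 0.13), and under the same 4 other settings as HNRNPK (adjusted p 0.059 to 0.098). METTL3, the m6A writer whose marks HNRNPA2B1 has been reported to read, had a log2 difference of 0.21 (SE 0.08, adjusted p = 0.13). TNPO1, the import receptor of HNRNPA1, and PKM had differences of 0.12 and -0.03, with adjusted p-values of 0.59 and 0.91. They are given as the textbook partner and target, beyond the rule for naming genes. The values are gene totals, so exon choice in PKM was not measured.

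The genes whose log2(FPKM + 1) followed HNRNPA1L2 most closely over the 6 libraries were CDC42EP4, HOXC10, EPN1, RHOT1 and GANAB, with Pearson r of 0.998 for CDC42EP4 and at least 0.995 for the others. Their log2 differences ran from 0.47 for RHOT1 to 1.22 for GANAB, all smaller than that of HNRNPA1L2, since r does not measure size. For HNRNPA1 the 5 closest were SSB, SWI5, MT1F, FRG1 and NPM1, with r between 0.990 and 0.994. SSB encodes the La protein and NPM1 a nucleolar chaperone, and NPM1 went from 268.2 to 302.2 FPKM in LV-NC to 327.9 to 350.5 FPKM in LV-SNORA28. With 6 libraries in 2 groups, a high r can come from the group difference alone, and all genes share the scaling of the library. The values are descriptions with no test.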

How the data were processed

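HCT116 RNA was poly(A)-selected, made into dUTP-stranded libraries and read as paired ends of 150 bases, per the labels. The authors deposited 1 FPKM table per library. The submitters' processing notes name cutadapt 1.9, HISAT2 2.2.1, StringTie 2.1.6, DESeq2, edgeR and hg38. The annotation release, filters, strand setting, treatment of multiply mapped reads and read depth are not given in the sources used here, so no counting interval is attached to any value. Of 60612 gene identifiers, 60401 were matched to GENCODE release 44. The smallest number of genes differing between any pair of libraries was 26342.

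For the test, limma 3.58.1 in R 4.3.3 (lmFit, and eBayes with a trend) was applied to log2(FPKM + 1) of the 12076 genes that averaged 1 FPKM or more. P-values were two-sided and adjusted over all genes tested by the Benjamini-Hochberg method, and adjusted p below 0.05 was called. The percent of the pseudogenes and the sum of HNRNPA1 and its copies without HNRNPA1L2 were compared by exact permutation tests in scipy 1.17.1. Copies were aligned with biopython 1.88, and shared windows were exact matches to GENCODE transcripts. Sequences of the copies are not reported here. The fit was also checked on simulated data with independent noise and no scaling shift between libraries. That check does not cover such shifts, and no result here rests on it.

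The members, lists and tests were chosen with earlier results of these data known. Genes were named by a rule: the 6 members, HNRNPA1 copies reaching 1 FPKM in any library, overlapping genes and the nearest protein-coding genes, the 3 genes of each list with the lowest adjusted p and those that passed, and the 5 genes most correlated with HNRNPA1L2 and with HNRNPA1. Alternatives were no trend, quantile normalization, an equal FPKM sum outside the mitochondrial genome, no filter, a mean of at least 5 FPKM, a block for the replicate number, 0.1 as the pseudocount, and each library left out.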

Additional observations from a re-analysis of the deposited data

How the results depend on the processing

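The number of all genes called, 1076 in the reported fit, was 397 with no filter on low values and between 278 and 629 when 1 library was left out, where fewer samples were fitted. Among the 5 family genes not used by the rule, 1 was called, and 2 under quantile normalization, where HNRNPA1 joined HNRNPAB. With 1 library left out the number was 1 each time. The log2 difference of HNRNPA3 turned to -0.064 under quantile normalization and to -0.013 without LV-NC library 1, and ran up to 0.080 without LV-SNORA28 library 1. That of HNRNPA0 turned to 0.015 without LV-NC library 2, to 0.0091 without LV-NC library 3 and to 0.011 without LV-SNORA28 library 1, and went down to -0.090 without LV-NC library 1. The cause of these changes was not tested, and none of the reversed differences passed. HNRNPA1L2 had a log2 difference of 2.66 with a pseudocount of 0.1. Leaving out 1 library, the difference of HNRNPA1L2 as a percent of HNRNPA1 ran from 3.74 to 4.42 percentage points. That of the pseudogenes ran from -3.22 to -2.44, and that of HNRNPA1 with all its copies from 35.7 to 53.2 FPKM. Same-numbered libraries did not deviate together (r of -0.04, 0.09 and 0.01), so the numbers were not taken to pair the samples. In a fit with a replicate block, 510 genes were called and HNRNPAB kept its call (adjusted p = 0.036), as did HNRNPUL2 (0.032) and MAPK14 (0.033). HNRNPLL (adjusted p = 0.053), HNRNPK (0.077), KHDRBS1 (0.067) and HNRNPA3P5 (0.098) were not called in it. FPKM tables give no depth, so the precision of low values is known only from the spread between libraries.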
